A study of Mus musculus with 6 samples.

Results

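The CC chemokine genes Ccl2, Ccl3, Ccl4, Ccl5, Ccl6, Ccl7, Ccl9, Ccl17, Ccl22 and Ccl24 were followed in mRNA sequencing of mouse bone marrow-derived dendritic cell cultures grown with or without queuine. The genes were chosen by name, through the symbol that the GENCODE mouse annotation gives to each Ensembl identifier. The choice was made with earlier results of these data known. All 10 were found among the 57132 identifiers of the table. Marrow came from C57BL/6 female mice aged 6 to 8 weeks and was cultured in RPMI-1640 with 10% dialyzed fetal bovine serum and 15 ng/mL of recombinant GM-CSF, the growth factor that drives myeloid cells and dendritic cells out of marrow precursors. The control group (0Q, 3 libraries) received 0 nM queuine and the other group (100Q, 3 libraries) received 100 nM queuine, renewed at the feedings on days 2 and 4. RNA was taken on day 5. No genotype differed between the groups. Triplicate plating is stated, but not whether separate mice were used, so p-values measure only the variation among these wells, part of which may be technical.

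Chemokines are small secreted proteins that guide the migration of leukocytes through G protein-coupled receptors on the responding cell. The CC family is named for adjacent cysteines near the amino terminus of the mature protein. Myeloid cells are a main source of the family: monocytes and macrophages make ligands that recruit further monocytes, and dendritic cells grown in GM-CSF are known for Ccl17 and Ccl22, which attract T cells that carry Ccr4. Queuine is a base that animals obtain from food and gut microbes, and cells insert it into the anticodon of the tRNAs for asparagine, aspartate, histidine and tyrosine as queuosine. Those tRNAs read codons whose middle base is A and whose last base is U or C.

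The coding sequences of 3 short members are shown because these codons are where queuosine acts. Each runs 5′ to 3′ from the start to the stop codon, written as DNA from the GENCODE transcripts on GRCm39, and capitals mark the codons for asparagine, aspartate, histidine and tyrosine. Ccl3 is shown as a member with a low share of such codons ending in U and Ccl7 as one with a high share. Ccl22 is shown as the member with the highest estimate in the queuine comparison.
Ccl3: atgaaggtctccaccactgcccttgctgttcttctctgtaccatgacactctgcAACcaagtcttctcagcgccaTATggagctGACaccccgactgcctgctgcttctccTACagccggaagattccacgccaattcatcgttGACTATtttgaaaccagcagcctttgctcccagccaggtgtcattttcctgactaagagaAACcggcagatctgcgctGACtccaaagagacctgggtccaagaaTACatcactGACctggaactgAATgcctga
Ccl7: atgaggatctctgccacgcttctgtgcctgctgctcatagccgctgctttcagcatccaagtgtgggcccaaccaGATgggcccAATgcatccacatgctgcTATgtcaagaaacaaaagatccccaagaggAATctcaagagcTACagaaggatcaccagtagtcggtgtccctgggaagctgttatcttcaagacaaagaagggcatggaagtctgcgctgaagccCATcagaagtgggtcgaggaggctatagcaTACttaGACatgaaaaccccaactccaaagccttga
Ccl22: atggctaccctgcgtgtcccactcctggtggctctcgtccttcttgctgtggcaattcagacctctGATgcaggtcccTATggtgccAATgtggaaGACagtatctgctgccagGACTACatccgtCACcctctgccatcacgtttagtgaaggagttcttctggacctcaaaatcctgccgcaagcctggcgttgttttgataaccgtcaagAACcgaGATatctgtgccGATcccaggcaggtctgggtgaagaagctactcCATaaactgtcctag

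Ccl3 held 3 codons ending in U and 8 ending in C, a U-ending share of 27.3%. Ccl7 held 5 and 3, a share of 62.5%, and Ccl22 held 6 and 5, a share of 54.5%. For 6 further members the share was 30.8% in Ccl2, 33.3% in Ccl5, 40.0% in Ccl24, 50.0% in Ccl9, 53.8% in Ccl6 and 60.0% in Ccl17. These 9 values do not span the full range of the 10 members. The median over the 10 members was 45.0%, and over 9507 tested genes with a coding sequence it was 43.6%, with quartiles of 34.4% and 53.4%. The 4 amino acids together took 8.25 (Ccl7) to 13.2 (Ccl5) of every 100 codons in the members. Their median of 10.4 was below the median of 13.9 over the tested genes. Adjacent cysteine codons, which give the family its name, were found in all 10 coding sequences, for example at codons 34 and 35 of Ccl3.

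Library totals ran from 3675918 to 6755367 counts in 0Q and from 4484785 to 19386533 in 100Q, where replicate 3 was the deepest. A floor of 3 counts equalled 0.159 to 0.833 CPM, the count of a gene per 1000000 counts of its scaled library. In 0Q replicate 1 the deviation of genes from their mean over libraries ran with exon length at a rank correlation of -0.14 across genes, compared with -0.04 to 0.09 in the other 5 libraries. The dendritic cell label was checked on 15 marker genes, of which 9 averaged 10 CPM or more over the 6 libraries. H2-Aa, a chain of MHC class II, had 0Q and 100Q means of 577 ± 91.9 and 580.3 ± 76.5 CPM (SD, n = 3 each). Flt3 and Zbtb46, which mark conventional dendritic cells, were low: Flt3 averaged 1.12 ± 0.748 and 3.33 ± 2.11 CPM in the 0Q and 100Q cultures, and Zbtb46 averaged 1.17 ± 0.640 and 2.46 ± 1.14 CPM. In bulk RNA of this kind fewer cells of a type and less RNA per cell cannot be told apart.

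Ccl6, a monocyte-attracting chemokine of rodents, was by far the most abundant member. Levels were compared between genes as CPM per kilobase of the exons annotated for each gene, averaged over the 6 libraries. On that scale Ccl6 stood at 20217 and the next member, Ccl2, at 1330 (15.2 times lower). A group of 5 members followed within a narrow span, with Ccl4 at 572, Ccl17 at 444, Ccl3 at 404, Ccl9 at 344 and Ccl7 at 285 CPM per kilobase. Below a further step of 10.5 times came Ccl5 at 27.1, Ccl22 at 13.9 and Ccl24 at 0.646 CPM per kilobase.

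Of the 9 pairs of neighbours in this order, 5 had ranges over the 6 libraries that did not overlap. These were Ccl6 and Ccl2, Ccl2 and Ccl4, Ccl7 and Ccl5, Ccl5 and Ccl22, and Ccl22 and Ccl24. Within the span from Ccl4 to Ccl7 all 4 neighbouring ranges overlapped. Ccl4 was nevertheless above Ccl17 in 6 of 6 libraries, Ccl17 was above Ccl3 in 3, Ccl3 above Ccl9 in 5 and Ccl9 above Ccl7 in 5. The lengths come from a current annotation and may differ from the authors' gene models, and the same order was found with the longest transcript as length.

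**Figure D1:**
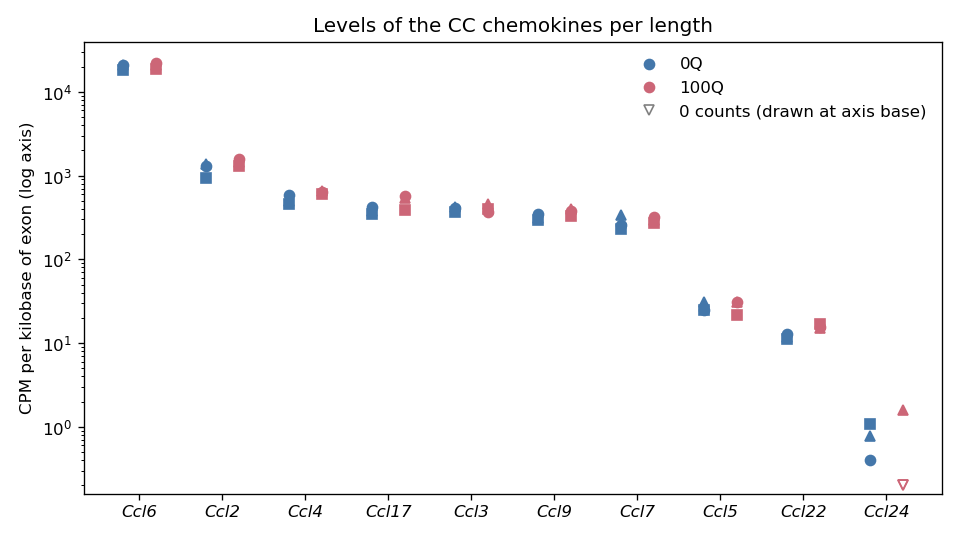
Level of each CC chemokine in CPM per kilobase of annotated exon on a log axis, with a point for each of the 3 libraries of 0Q and of 100Q. Ccl6 stands above all other members, 5 members from Ccl4 to Ccl7 lie close together, and Ccl5, Ccl22 and Ccl24 lie below them.

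The study asked how queuine changes the transcriptome, and none of the 9 tested chemokines passed the threshold between 100Q and 0Q. Ccl24 was left out by the filter on low counts. All 9 estimates lay above 0, from 0.03 to 0.40 on the log2 scale, with the highest for Ccl22, Ccl17, Ccl4 and Ccl2. By edgeR's quasi-likelihood test with Benjamini-Hochberg adjustment over 10554 genes, the adjusted p of every tested member was 0.999, and 0% of all tested genes passed 0.05. At an unadjusted p under 0.05, edgeR gave 2 members, Ccl4 and Ccl17, both higher in 100Q, where 1.77% of all tested genes were found on that side and 0.678% of those at a mean of 100 CPM or more. No member was found on the lower side, where 1.16% of all genes were. At that level DESeq2 gave 2 members, beside 3.37% of all tested genes in either direction, and limma-voom gave 4, beside 2.94%. Under a replicate block edgeR gave 4, beside 3.99%. With a library left out edgeR gave 0 to 4 members. It gave 4 without 100Q replicate 2, beside 193 of 11096 tested genes, and 4 without 0Q replicate 1, beside 405 of 11070. It gave 1 without 0Q replicate 3, beside 333 of 11175. It gave 0 without 0Q replicate 2, beside 662 of 10975. It also gave 0 without 100Q replicate 1 (196 of 11162) and without 100Q replicate 3 (404 of 11091). DESeq2, limma-voom and the block gave no member past the adjusted threshold.

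The median estimate of the 9 members was 0.22, beside 0.00 over all tested genes. An estimate above 0 was found for 50% of all tested genes. Because the chemokines are abundant, genes at a mean of 100 CPM or more are the closer background: their median was -0.06 and 32.2% of the 1328 lay above 0, compared with 7 of 7 members at that level. An estimate of 0.2 or more was found for 4 of these 7 members (Ccl2, Ccl4, Ccl9 and Ccl17) and for 5.42% of the 1328 genes. Because the members were chosen with earlier results of these data known, these counts describe the list and do not test it. The count at 0.2 or more was not stable to leaving a library out. Ccl2 and Ccl9 fell below 0.2 without 0Q replicate 2 (0.12 and 0.15) and without 100Q replicate 1 (0.19 and 0.19). Ccl7 rose above it, to 0.27, without 0Q replicate 3. The members' median depended on 0Q replicate 2, without which it was 0.12 and 6 of 9 estimates lay above 0. That library was the lowest of the 6 for 8 of the 9 members.

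**Figure D2:**
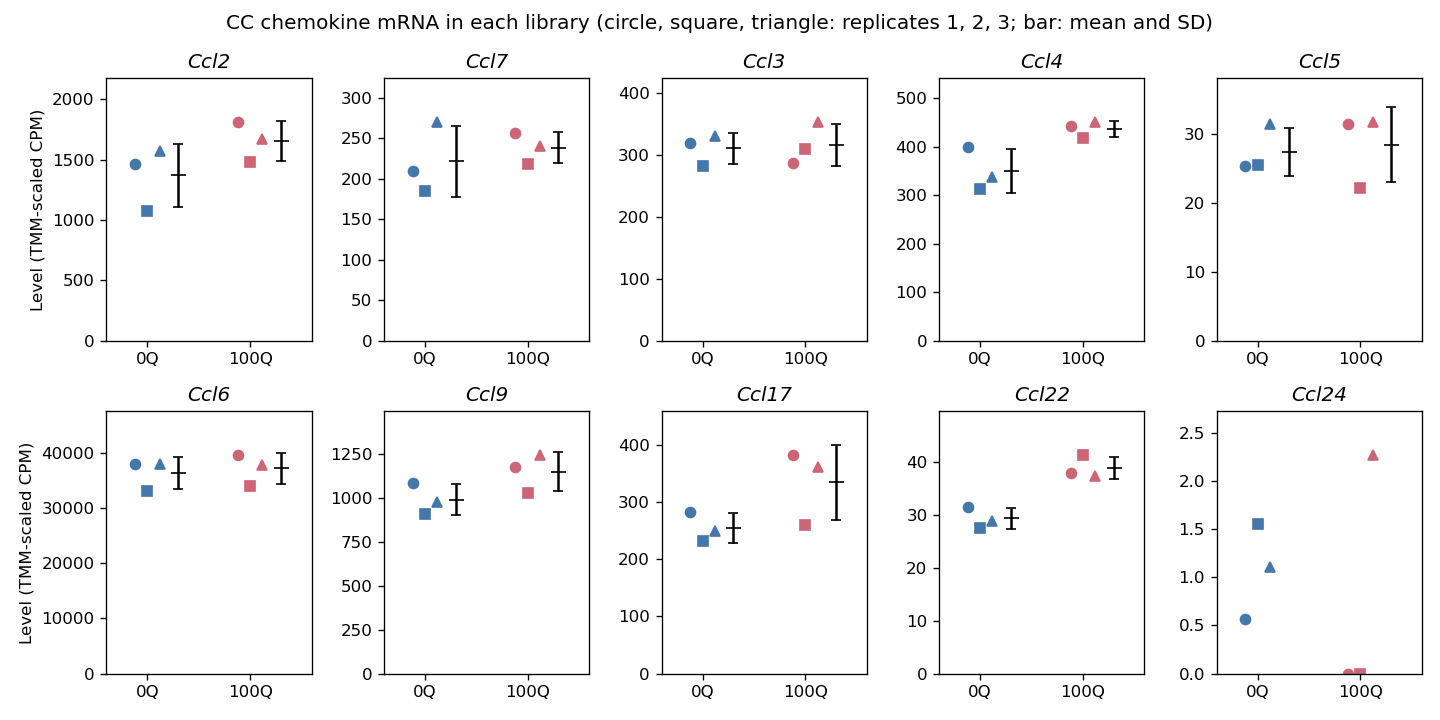
CPM of each CC chemokine in the 3 libraries of 0Q and the 3 of 100Q, as points with the group mean and SD, each panel on its own axis; Ccl24, which had no counts in 2 libraries, has points only. The 2 groups do not overlap for Ccl4 and Ccl22 and overlap for the other 8 members.

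**Figure D3:**
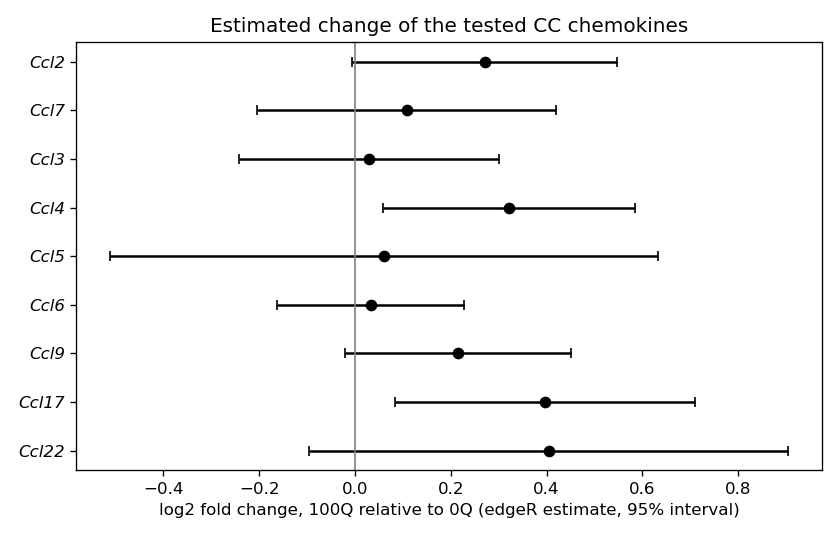
Estimated log2 fold change of the 9 tested members in 100Q relative to 0Q by edgeR, as points with 95% intervals and a vertical line at 0. All 9 points lie to the right of the line, and the intervals of Ccl4 and Ccl17 do not reach it before adjustment.

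Ccl2 and Ccl7 are nearby genes on chromosome 11 whose products recruit monocytes through Ccr2. Ccl2 (GRCm39, 11:81926397-81928279, plus strand) measured 1463, 1077 and 1576 CPM in the 0Q libraries and 1812, 1477 and 1675 CPM in the 100Q libraries. The highest value belonged to 100Q replicate 1 and the lowest to 0Q replicate 2, and the groups overlapped. Means were 1372 ± 262 and 1655 ± 168 CPM (SD, n = 3 each), an estimate of 0.27 on the log2 scale (SE 0.13, 95% interval -0.01 to 0.55). Without 0Q replicate 2 the estimate was 0.12.

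Ccl7 (11:81936532-81938351, plus strand) measured 209.8, 185 and 270.01 CPM in the 0Q libraries and 256, 218 and 241 CPM in the 100Q libraries. Its highest and its lowest library were both in 0Q, so the range of 0Q enclosed that of 100Q. The estimate was 0.11 (SE 0.15, 95% interval -0.20 to 0.42), and it was -0.01 without 0Q replicate 2. Changes of either sign within that interval were not resolved.

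Ccl3 and Ccl4 encode macrophage inflammatory proteins that attract monocytes and T cells, and their genes lie close together. Ccl4 (11:83553383-83555509, plus strand) measured 399, 312 and 338 CPM in the 0Q libraries and 442, 418 and 450.4 CPM in the 100Q libraries. Every 100Q library lay above every 0Q library, though the gap from 399 to 418 CPM was narrow. Means were 349.7 ± 44.8 and 437 ± 16.6 CPM (SD, n = 3 each), an estimate of 0.32 (SE 0.12, 95% interval 0.06 to 0.58).

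Ccl3 (11:83538670-83540191, minus strand) measured 319, 282 and 331 CPM in the 0Q libraries and 286, 310.2 and 353 CPM in the 100Q libraries. The groups overlapped over most of their range. The estimate was 0.03 (SE 0.13, 95% interval -0.24 to 0.30), and it was -0.06 without 100Q replicate 3. Its counts were not whole in any of the 6 libraries, a mark of reads that RSEM divided among genes, so its level carries that uncertainty.

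Ccl5, which attracts T cells and is made by activated cells, was much lower. Ccl5 (11:83416602-83425942, minus strand) measured 25.3, 25.4 and 31.4 CPM in the 0Q libraries and 31.4, 22.1 and 31.7 CPM in the 100Q libraries, from 105 to 599 counts. Both the highest and the lowest library were in 100Q. The estimate was 0.06 (SE 0.27, 95% interval -0.51 to 0.63), the widest interval among the 9 tested members, and it was -0.03 without 100Q replicate 3.

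Ccl6 and Ccl9 are rodent chemokines that act through Ccr1, and their genes lie close together. Ccl6 (11:83478708-83483913, minus strand) measured 38061, 33004 and 37943 CPM in the 0Q libraries and 39590.4, 34063 and 37862 CPM in the 100Q libraries. Replicate 2 of each group was the lowest, and the ranges overlapped almost wholly. The estimate was 0.03 (SE 0.09, 95% interval -0.16 to 0.23), the narrowest interval of the 9, and it was -0.04 without 0Q replicate 2. It rested on 136592 to 716470 counts a library. Like those of Ccl3, its counts were not whole in any library.

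Ccl9 (11:83463745-83473161, minus strand) measured 1087, 911 and 979.7 CPM in the 0Q libraries and 1178, 1032 and 1247 CPM in the 100Q libraries. The lowest 100Q library lay below the highest 0Q library, and the others were in order. Means were 993 ± 88.6 and 1152 ± 110 CPM (SD, n = 3 each), an estimate of 0.22 (SE 0.11, 95% interval -0.02 to 0.45).

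Ccl17 and Ccl22, the ligands of Ccr4, lie 56030 bases apart on chromosome 8 and had the highest estimates. Ccl17 (8:95534358-95538664, plus strand) measured 282, 232 and 249 CPM in the 0Q libraries and 382, 260.3 and 362 CPM in the 100Q libraries. Replicates 1 and 3 of 100Q stood well above all other libraries, and 100Q replicate 2 lay within the range of 0Q. Means were 255 ± 25.4 and 335 ± 65.4 CPM (SD, n = 3 each), an estimate of 0.40 (SE 0.15, 95% interval 0.08 to 0.71).

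Ccl22 (8:95471226-95478327, plus strand) measured 31.5, 27.5 and 28.9 CPM in the 0Q libraries and 37.8, 41.3 and 37.4 CPM in the 100Q libraries. Every 100Q library lay above every 0Q library. Means were 29.3 ± 2.05 and 38.8 ± 2.14 CPM (SD, n = 3 each), an estimate of 0.40 (SE 0.24, 95% interval -0.10 to 0.90). It rested on 104 to 707 counts a library, fewer than Ccl17. In 100Q replicate 2 the pair parted, with the highest Ccl22 and the lowest Ccl17 of its group.

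The promoters of this pair are shown because GM-CSF acts through STAT5 and because STAT6 drives both genes in response to interleukin 4. RefSeq gave a promoter for 5 of the 10 members (Ccl3, Ccl6, Ccl9, Ccl17 and Ccl22) on GRCm38.p6, and the 250 bases before the start were searched on both strands. Capitals mark matches to TTCNNNGAA, the STAT motif, and TTCNNNNGAA, its STAT6 form. The Ccl17 window is chr8:94810203-94810452 and the Ccl22 window chr8:94745434-94745683, both on the plus strand.
Ccl17 promoter: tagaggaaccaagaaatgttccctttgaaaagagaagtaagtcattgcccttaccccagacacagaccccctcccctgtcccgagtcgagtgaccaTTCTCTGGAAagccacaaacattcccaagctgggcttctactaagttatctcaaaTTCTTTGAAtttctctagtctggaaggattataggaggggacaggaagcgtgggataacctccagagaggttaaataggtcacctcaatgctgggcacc
Ccl22 promoter: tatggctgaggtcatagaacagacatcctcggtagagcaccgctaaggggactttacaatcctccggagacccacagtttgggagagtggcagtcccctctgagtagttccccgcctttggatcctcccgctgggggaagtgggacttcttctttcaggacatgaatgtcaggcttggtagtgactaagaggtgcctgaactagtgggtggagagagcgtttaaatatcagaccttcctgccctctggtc

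Ccl17 held TTCNNNNGAA beginning 154 bases and TTCNNNGAA beginning 99 bases before the start. Neither string was in the windows of the other 4 members. Over 32851 promoters of the same length, 7.02% held TTCNNNGAA and 5.85% held TTCNNNNGAA. The TATA string TATAAA was found in Ccl9 alone of the 5 and in 12.4% of all promoters. A match describes these letters only.

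Ccl24, an eosinophil-attracting ligand of Ccr3, was at the edge of detection (GRCm39, 5:135598668-135601905, minus strand). It had 3, 11 and 4 counts in 0Q and 0, 0 and 43 counts in 100Q, or 0.567, 1.55 and 1.11 CPM and 0, 0 and 2.27 CPM. The counts of 0 allow up to 0.570 and 0.632 CPM in 100Q replicates 1 and 2, for counting error only. The highest value and both zeros were in 100Q, and no difference was detectable at this depth.

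Non-overlap of the groups with 100Q higher was found for 2 members, Ccl4 and Ccl22, and for 4.42% of all tested genes. Among genes at 100 CPM or more, where Ccl4 alone of 7 members met it, the share was 1.66%. The count depended on scaling. With RLE size factors it was again 2, where 4.21% of all genes and 1.28% of the abundant ones met it. With upper quartile scaling it was 2, beside 4.48% and 1.36%. With library totals alone it was 5 (Ccl2, Ccl4, Ccl9, Ccl17 and Ccl22), beside 4.71% and 3.24%. The scalings were planned for the fits, but their use for this count was added after seeing the data. The TMM factors were highest in replicate 2 of each group, at 1.05 and 1.06, compared with 0.929 to 0.997 in the other 4 libraries.

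Shares of a library's counts are relative to its total, without TMM scaling. The 10 members took 3.88, 3.78 and 4.09% of all counts in 0Q and 4.37, 4.01 and 4.13% in 100Q, or 3.92 ± 0.156% and 4.17 ± 0.187% (SD, n = 3 each). The groups overlapped, and the difference was 0.251 percentage points. Ccl6 decided the sum, since it made up 90.9, 91.5 and 90.9% of the members' counts in 0Q and 89.9, 90.01 and 89.6% in 100Q. That share of Ccl6, which no scaling between libraries can alter, was lower in every 100Q library than in every 0Q library. How often other such shares part the groups was not computed. Ratios of neighbouring genes, which scaling cannot alter either, did so in 8.92% of 9753 pairs. The Ccl6 share, the sum without Ccl6 and the ratio of Ccl6 to Ccl9 below use the same counts and are not independent.

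Without Ccl6 the other 9 members took 0.353, 0.321 and 0.373% of all counts in 0Q and 0.440, 0.400 and 0.429% in 100Q. These groups did not overlap per library total, with means of 0.349 ± 0.0264% and 0.423 ± 0.0205%. On the TMM scale they did: the 9 members summed to 3817, 3053 and 3806 CPM in the 0Q libraries and to 4426, 3779.8 and 4399 CPM in the 100Q libraries, where replicate 2 of 100Q lay below replicates 1 and 3 of 0Q. That second scale was added after seeing the data. Ccl2 and Ccl9 supplied most of these counts.

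Ratios between chemokine genes that lie close together were also taken. The ratio of Ccl4 to Ccl3 per kilobase, whose genes lie 13191 bases apart, was 1.41, 1.25 and 1.15 in 0Q and 1.74, 1.52 and 1.44 in 100Q. That of Ccl6 to Ccl9, 5546 bases apart, was 60.0, 62.0 and 66.3 in 0Q and 57.6, 56.5 and 52.0 in 100Q. In both pairs the groups did not overlap, as in 8.92% of 9753 neighbouring pairs over the genome and 8.54% of the 199 with both genes at 100 CPM or more. The ratio of Ccl2 to Ccl7 was 4.94, 4.13 and 4.14 in 0Q and 5.02, 4.80 and 4.94 in 100Q, where 0Q replicate 1 lay among the 100Q libraries. The ratio of Ccl17 to Ccl22 was 33.0, 31.1 and 31.8 in 0Q and 37.2, 23.2 and 35.7 in 100Q, where both the highest and the lowest values were in 100Q.

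**Figure D4:**
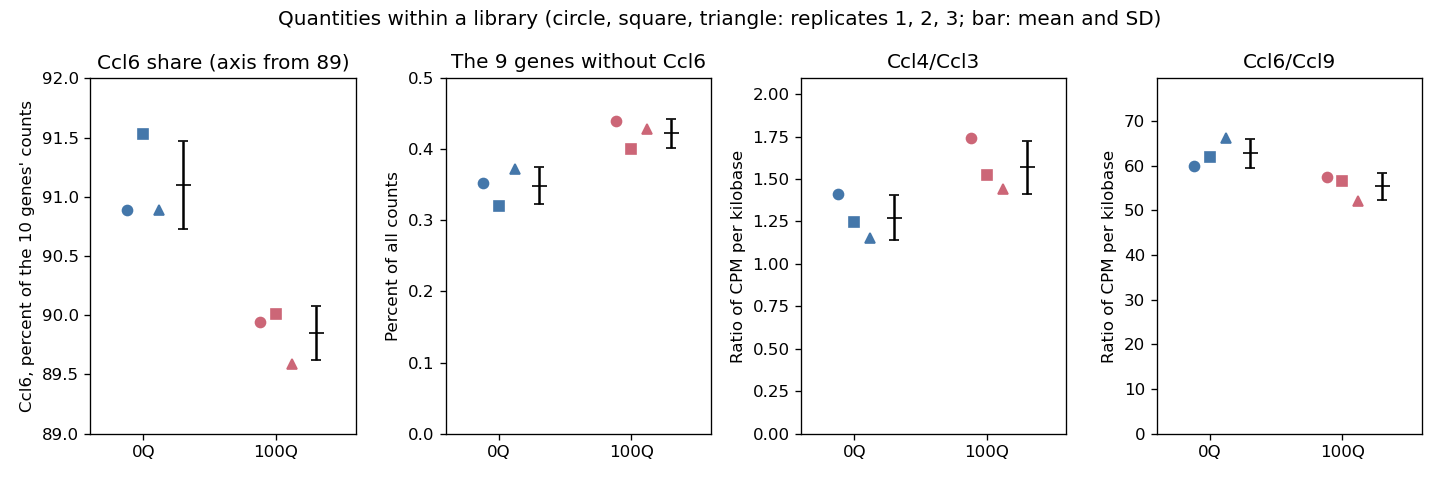
Quantities taken within each library, with points for the 3 libraries of 0Q and of 100Q: shares of counts in percent and ratios of nearby chemokine genes per kilobase, with bars for the mean and SD; the axis of the Ccl6 share is cropped and does not start at 0. The groups are apart for the share of the members without Ccl6 (per library total, though not on the TMM scale), the share of Ccl6 among the members, and the ratios of Ccl4 to Ccl3 and Ccl6 to Ccl9. The ratios of Ccl2 to Ccl7 and Ccl17 to Ccl22, whose groups overlapped, are not drawn.

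Libraries of the same group differed in where they placed the members. 100Q replicate 3 lay above a member's own mean for 9 of 9 members and 100Q replicate 1 for 8, whereas 100Q replicate 2 did so for 2. In 0Q, replicate 2 lay below the mean for all 9. Among the 7 members at 100 CPM or more, Ccl17 varied most, with an SD of 0.29 in log2(CPM + 1) over the 6 libraries.

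Of 1327 other genes at that level, those with a pattern close to that of Ccl17 included Pla2g7 (rank 2) and Med8 (rank 3). Their root mean square difference from it over the 6 libraries was 0.11 and 0.12 in log2(CPM + 1) after centring, beside a median of 0.30 over the 1327 genes. Pla2g7, a secreted phospholipase that hydrolyses platelet-activating factor, averaged 113 ± 9.05 CPM without queuine and 135 ± 16.9 CPM with it (SD, n = 3 each). Med8, a Mediator subunit, averaged 122 ± 13.0 and 137 ± 26.4 CPM. Of the other members, Ccl9 came closest (0.13, rank 5), then Ccl4 (0.15, rank 13) and Ccl2 (0.17, rank 23).

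None of the receptors or other ligands passed the threshold. Of 12 CC chemokine receptors 5 were tested, with 2 estimates above and 3 below 0 and a median of -0.18. Ccr1, the receptor of Ccl6 and Ccl9, was the most abundant, with means of 282 ± 30.4 and 289 ± 44.4 CPM in 0Q and 100Q (SD, n = 3 each), an estimate of 0.03. Ccr2, the receptor of Ccl2 and Ccl7, was at 57.1 ± 15.3 and 47.95 ± 7.49 CPM, an estimate of -0.25 that was -0.034 without 0Q replicate 2. Ccr4, the receptor of Ccl17 and Ccl22, had 6 counts in all 6 libraries together, and Ccr3, the receptor of Ccl24, had 19.

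Of 11 other CC chemokines, 7 had no count in any library (Ccl1, Ccl8, Ccl11, Ccl19, Ccl20, Ccl21a and Ccl26) and 2 were tested. Ccl25, a ligand of Ccr9, was at 11.2 ± 3.94 CPM in 0Q and 7.75 ± 1.81 CPM in 100Q, an estimate of -0.54 (SE 0.43) that was -0.30 without 0Q replicate 1. Ccl27a, a skin-homing ligand, was at 1.97 and 2.48 CPM, an estimate of 0.33 that was 0.064 without 0Q replicate 3. None of the 4 atypical receptors, which scavenge chemokines, had enough counts to test, and Ackr3 had 3 counts in all.

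The lists of regulators likewise held no gene past the threshold. They too were chosen with earlier results of these data known, so their counts above and below 0 are descriptions only. Of 12 genes of the NF-kB pathway, which induces many chemokines, 7 estimates lay above and 5 below 0 (median 0.11). Nfkbia, the inhibitor IkBa and a feedback target, was at 175 ± 31.3 CPM in 0Q and 153 ± 29.2 CPM in 100Q, an estimate of -0.20 that was -0.037 without 0Q replicate 1. Tnfaip3, the feedback inhibitor A20, was at 16.0 ± 6.81 and 10.96 ± 3.30 CPM, an estimate of -0.54 that was -0.28 without 0Q replicate 2. Of the genes on the STAT6, IRF4 and STAT5 route to Ccl17 and Ccl22, 11 of 12 were tested. Estimates lay above 0 for 10 and below 0 for 1 (median 0.30), beside 50% above 0 over all tested genes.

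Stat5a, which signals for the GM-CSF receptor, measured 11.4, 13.2 and 11.4 CPM in the 0Q libraries and 18.3, 24.4 and 17.2 CPM in the 100Q libraries. Its groups did not overlap, with 100Q higher, as in 3 of the 11 tested genes of that route and 4.42% of all tested genes. The others of the 3 were Irf4 and Klf4, whose groups lay only 0.43 and 0.0045 CPM apart, compared with 4.00 CPM for Stat5a. The estimate for Stat5a was 0.72 (SE 0.33). Csf2rb, the signalling chain of that receptor, measured 121, 222 and 195 CPM in the 0Q libraries and 251, 274 and 185 CPM in the 100Q libraries, an estimate of 0.40 (SE 0.19). Its groups overlapped, 0Q replicate 1 was the lowest library, and without it the estimate was 0.18.

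All 6 tested genes of 7 that act on the decay of chemokine mRNA had estimates above 0 (median 0.30), beside 50% of all tested genes. Elavl1, the stabilising protein HuR, was at 92.4 and 95.7 CPM, an estimate of 0.04 that was -0.04 by limma-voom. Zfp36l1 and Zfp36l2, which destabilise mRNA with AU-rich elements, had estimates of 0.76 and 0.36, which were 0.39 and 0.024 without 100Q replicate 2. Of 8 proteases that trim chemokines 7 were tested, 4 above and 3 below 0 (median 0.10). Mmp12, the macrophage elastase, was at 17604 ± 2631 CPM in 0Q and 19217 ± 3541 CPM in 100Q, an estimate of 0.13 that was -0.013 without 100Q replicate 1. The neutrophil proteases Prtn3 and Elane had estimates of -0.40 and -0.17, and that of Prtn3 was -0.17 without 0Q replicate 1.

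Markers of other cell types were set beside these values. The 12 monocyte and macrophage markers summed to 18980 to 21110 CPM in 0Q and 18956 to 22744 CPM in 100Q, with overlap. Of these 12, 8 averaged 10 CPM or more over the 6 libraries, and C1qa had 2 counts in all. The 12 neutrophil markers summed to 17025 to 19975 CPM in 0Q and 14204 to 17294 CPM in 100Q, with overlap. Of the 12, 11 had estimates below 0 (median -0.23). As a background for all these marker lists, 50% of all tested genes lay above 0. Of those at a mean of 100 CPM or more, 32.2% did (median -0.06). Camp, Ngp and Ly6g were lower in every 100Q library than in every 0Q library, a non-overlap found for 3.86% of all genes. The share on that side among genes at a mean of 100 CPM or more was not computed. The 9 markers of mast cells, basophils and eosinophils summed to 1825 to 2057 and 1542 to 2019 CPM, with 9 of 9 estimates below 0. The 15 dendritic cell markers summed to 1086 to 1242 and 1114 to 1273 CPM, with overlap, and 10 of 14 tested had estimates above 0 and 4 below (median 0.07). Of these 14, 3 were higher in every 100Q library (Itgax, Cd74 and Ciita), beside 4.42% of all genes, and Kmo was lower in every one, beside 3.86%. Marker genes named for their non-overlap were chosen after their values were seen. B cell markers summed to 23.3 to 31.7 and 23.8 to 25.1 CPM, T and NK cell markers to 2.96 to 5.29 and 1.52 to 5.27 CPM with Cd3e at 0, and erythroid markers to 99.1 to 113 and 95.4 to 105 CPM with Klf1 at 0. The part of cell composition in the chemokine estimates was not tested.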

How the data were processed

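Expected counts for each gene in 6 libraries were deposited by the authors in 1 table, made with STAR and RSEM on mm39 (GRCm39) per the submitters' processing notes, which also name FastQC. The sources used here do not give tool versions, the annotation release or the handling of strand, so reads of overlapping antisense genes cannot be told apart. Identifiers were matched to GENCODE mouse release 39, and 502 of 57132 had no symbol.

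Expected counts were rounded to whole numbers and tested with edgeR 4.0.16 (R 4.3.3): filterByExpr (10554 genes kept), TMM scaling, robust quasi-likelihood fit with group as the only term, and Benjamini-Hochberg adjustment at 0.05 over all genes. CPM used TMM-scaled totals. Alternatives were DESeq2 1.42.0, limma-voom 3.58.1, other scalings and filters, a length-trend correction, thinning of 100Q replicate 3, a replicate block, and each library left out. The fit was tested on simulated data with changes much larger than the member estimates, so that test does not address changes of their size.

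The members and lists were chosen with earlier results of these data known. Named genes were all members, the most abundant and the 2 lowest-p tested genes of each list, and the 3 genes most like the most variable abundant member. Some items that this rule names are not reported here. Replicate numbers were not taken as pairs: deviations of same-numbered libraries correlated at 0.03, 0.08 and -0.01 across genes. Intervals and floors cover counting error only where they come from counts alone.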

Additional observations from a re-analysis of the deposited data

How the results depend on the processing

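No member passed the threshold under any alternative, and the count of all genes past it stayed at 0 except when a library was left out, where it ranged from 0 to 2 (2 without 0Q replicate 1, 1 without 0Q replicate 2). The members' median ranged from 0.12 to 0.29 with libraries left out and from 0.20 (RLE size factors) to 0.25 (library totals alone) under the other settings. With a library left out, 7 of 54 member estimates changed sign, none of them called: Ccl7 ranged from -0.014 to 0.27, Ccl3 from -0.059 to 0.090, Ccl5 from -0.029 to 0.20 and Ccl6 from -0.039 to 0.086. Among named genes of the lists, Ccr1 ranged from -0.071 to 0.14, Elavl1 from -0.16 to 0.23 and Mmp12 from -0.013 to 0.25. Elavl1 was also -0.036 with limma-voom and -0.016 with the length trend removed. The cause was not tested.

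The difference in the members' share of counts was 0.149 to 0.337 percentage points with libraries left out and 0.0742 without Ccl6, which holds most of the counts. The count of members higher in every 100Q library was 5 with library totals alone. The replicate block gave a median of 0.21, 0 genes and 0 members past the threshold and 4 members (3.99% of all genes) at an unadjusted p under 0.05, and changed no call. At that unadjusted level edgeR gave 0 to 4 members with a library left out. It gave 0 without 0Q replicate 2, beside 662 of 10975 tested genes, and 4 without 100Q replicate 2, beside 193 of 11096. Replicate numbers were not taken as pairs, and whether same-numbered libraries share a source is not known. Depth limits Ccl24, Ccl5 and Ccl22 most.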
